A study of Mus musculus with 8 samples.

Results

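The genes of ionotropic and metabotropic glutamate receptors and of the postsynaptic scaffold proteins that bind them were followed as a group through the induction of 5-hydroxymethylcytosine (5hmC) in mouse embryonic stem cells. The group was chosen by gene family, not by its values, and comprised 32 genes: 23 receptor genes (3 of AMPA, 5 of kainate, 7 of NMDA, 1 of delta and 7 of metabotropic receptors) and 9 scaffold genes (2 GRIP, 3 SHANK and 4 DLGAP genes). A call was assigned to a gene when its position lay inside the gene's span in the RefSeq table of GRCm38.p6, which holds 49980 genes on the chromosomes with calls. The 32 spans cover 10360.8 kb, from 6.794 kb (Grin3b) to 921.882 kb (Grm7), and held 7933 of 1849087 CpG calls (0.429%). No exon coordinates were used here, so exons, introns and untranslated regions within a span were not told apart.

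All cells were of 1 embryonic stem cell line in which TET1, TET2 and TET3 are genetically inactivated, so that the enzymes that normally make 5hmC by oxidising 5-methylcytosine are missing also from the controls. They all carried a PiggyBAC transposon from which doxycycline induces the catalytic domain of mouse TET3, linked to an mCherry reporter, and all are labelled as positive for it, the untreated cells included. Untreated cells gave 3 libraries (0 h, replicates A, B and C), cells after 6 h of 1 µM doxycycline gave 2 (A and B) and cells after 12 h gave 3 (A, B and C), all in medium with 50 µg/ml ascorbate. The labels give neither the number of clones behind the line nor whether libraries came from separate cultures, so p-values measure only the spread between these libraries, which may be technical. A domain expressed alone from a transposon lacks the rest of the TET3 protein. The calls are of DNA, so neither the stem cell identity nor the loss of the TET genes was checked by expression.

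APOBEC-coupled epigenetic sequencing (ACE-seq) protects 5hmC by glucosylation and deaminates cytosine and 5-methylcytosine, so the percentage of CpG calls that remain undeaminated is the 5hmC level plus the background of the assay. The libraries held 75023 to 485941 calls. Their levels were 1.13% ± 0.199 (SD, n = 3) at 0 h, 6.42% ± 0.212 (SD, n = 2) at 6 h and 24.1% ± 2.36 (SD, n = 3) at 12 h. Because reads with many CpGs gained less 5hmC in these libraries, each call was also given an expected level, that of all calls of its library on reads with as many CpG calls, and differences from it are in percentage points. Of the calls in the 32 genes, 98.8% lay at positions called once in their library, so levels are of genes and regions and not of single CpGs. Intervals are 95% Wilson intervals and cover counting error only, and since calls on a read are not independent they are too narrow. Where no call was undeaminated, the level said to be allowed is the share that 3 calls would make. It takes calls as independent and so is too low for the same reason.

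Glutamate is the main excitatory transmitter of the brain. AMPA, kainate and NMDA receptors are cation channels that open when glutamate binds, the delta receptors are related proteins at synapses, and metabotropic receptors act through G proteins. GRIP proteins bind AMPA receptors through PDZ domains, while DLGAP and SHANK proteins form layers of the postsynaptic density that connect NMDA receptors to metabotropic receptors and actin. These are genes of neurons, and many of them are very long, so most of their CpGs lie far from a promoter.

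The 32 genes together followed the rest of the genome from 0 to 12 h. At 0 h, 1.65, 2.27 and 1.77% of their calls were undeaminated in replicates A, B and C. At 6 h the level was 7.40 and 5.43% in A and B, and at 12 h it was 18.5, 24.2 and 28.4% in A, B and C. The 3 groups did not overlap, and within the 12 h group replicate A was lowest and C highest, as in the whole libraries. The group means were 1.90% ± 0.327 (SD, n = 3; 27 of 1459 calls), 6.41% ± 1.39 (SD, n = 2; 94 of 1618) and 23.7% ± 4.96 (SD, n = 3; 1106 of 4856). Each library was sequenced in 3 runs, within which the level of these genes was 0, 1.59 and 2.46% at 0 h, 6.44, 7.61 and 5.55% at 6 h and 25.6, 22.3 and 24.9% at 12 h. Since the genes were chosen with earlier results known, these pooled levels carry no test.

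Against the expected level the 12 h difference was -0.684 ± 2.69 points (SD, n = 3), with replicate A at -3.78, B at 0.679 and C at 1.05, so the libraries lay on both sides and the spread was larger than the mean. At 6 h the difference was 0.0654 ± 1.32 points (SD, n = 2). At 0 h all 3 libraries lay above expectation, by 0.770 ± 0.267 points (SD, n = 3). The 27 undeaminated calls behind that excess sat on 17 reads, 7 of which held at least 2 of them, and came from 13 of the 32 genes. Over all protein-coding gene spans the difference at 0 h was 0.00720 ± 0.0373 points (SD, n = 3). In the list of other glutamate synapse genes described below it was 0.907 ± 0.528 points (SD, n = 3), also with all 3 libraries above expectation. In the GABA and glycine receptor genes it was -0.153 ± 1.01 points (SD, n = 3). Whether the excess in the 32 genes is larger than chance was not tested. In 17 of the genes no call was undeaminated at 0 h, and the deepest of these, Grik4 with 0 of 108 calls, allowed a level of up to 2.78%.

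**Figure D1:**
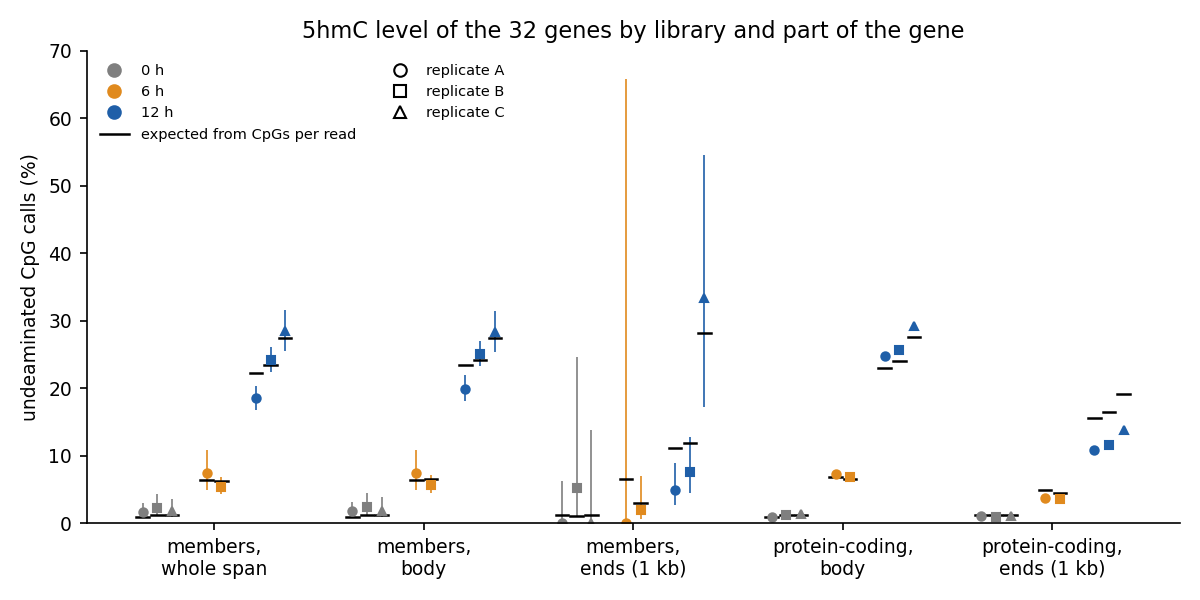
Percentage of undeaminated CpG calls (y axis) in each library at 0 h (grey), 6 h (orange) and 12 h (blue), for the 32 genes and for all protein-coding genes (x axis); bars are 95% Wilson intervals and black ticks the level expected from CpGs per read. Whole spans and bodies of the 32 genes reached 18.5 to 28.4% at 12 h, with replicate A below its tick and B and C nearer to theirs, while their ends rest on few calls and replicate C at 12 h stands far above the other replicates there.

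The ends of the 32 genes were thinly covered, and their libraries did not agree on a difference from the body: the ends were below the body in A and B and above it in C. In the body, more than 1 kb from either end, the 32 genes reached 20.0, 25.1 and 28.3% at 12 h in A, B and C (24.5% ± 4.21, SD, n = 3; 1086 of 4565 calls), against an expected 25.0%. Bodies of all protein-coding genes reached 26.6% ± 2.40 (SD, n = 3), which was 1.68 ± 0.0664 points above their expected level, whereas the bodies of the 32 genes differed from theirs by -0.554 ± 2.53 points (SD, n = 3). The 2 kinds of body are not quite alike. Bodies of all protein-coding genes leave out calls within 1 kb of an end of any such gene, those of the 32 genes only calls near the gene's own ends. Within 1 kb on either side of an end, 10 of 201 calls (4.98%) were undeaminated in replicate A, 12 of 158 (7.59%) in B and 7 of 21 (33.3%) in C. The mean was 15.3% ± 15.7 (SD, n = 3), and the calls of the 3 libraries summed gave 29 of 380 (7.63%). Replicate C, with 21 calls on 7 reads, set that spread, and without it the mean was 6.29%. Ends of all protein-coding genes reached 12.1% ± 1.60 (SD, n = 3), 5.00 ± 0.298 points below their expected level. For the 32 genes the difference at the ends was -1.77 ± 6.04 points (SD, n = 3), with A and B below expectation and C above it.

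Strand was known for 21 of the genes from their RefSeq promoter entries, which separated starts from far ends, a split added after the data were seen. Within 1 kb of the starts, 5 of 190 calls, on only 23 reads, were undeaminated at 12 h. Their summed level was 2.63% (1.13 to 6.01%), where 9.81% was expected from CpGs per read. Within 1 kb of the far ends, 14 of 81 calls, on 15 reads, were undeaminated, or 17.3% (10.6 to 26.9%), where 16.3% was expected. The same sides of 17492 protein-coding genes gave 7.64% at starts, with 14.4% expected, and 24.0% at far ends, with 22.6% expected. In both sets the summed level was lower at the starts than at the far ends.

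The promoters of the receptor and scaffold genes are rich in CpGs. Their 27 entries in the RefSeq promoter table (GRCm38.p6, 250 bases before to 50 after a start) held a median of 15 CpGs in 300 bases, from 1 to 50, against a median of 7 over all 32851 entries. Calls fell in only 5 of these promoters, and 3 are printed here to show how closely the called CpGs are spaced. The 250 bases before the start are given 5′ to 3′ on the strand of the gene, and capitals mark the CpGs that were called in any library.
Dlgap1, chr17:69968823-69969072, plus strand: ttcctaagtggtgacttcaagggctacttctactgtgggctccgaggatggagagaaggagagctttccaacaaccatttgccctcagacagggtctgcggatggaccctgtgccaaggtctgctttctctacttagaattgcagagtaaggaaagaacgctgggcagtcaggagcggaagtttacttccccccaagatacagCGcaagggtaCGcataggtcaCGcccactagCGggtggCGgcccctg
Grik2, chr10:49788755-49789004, minus strand: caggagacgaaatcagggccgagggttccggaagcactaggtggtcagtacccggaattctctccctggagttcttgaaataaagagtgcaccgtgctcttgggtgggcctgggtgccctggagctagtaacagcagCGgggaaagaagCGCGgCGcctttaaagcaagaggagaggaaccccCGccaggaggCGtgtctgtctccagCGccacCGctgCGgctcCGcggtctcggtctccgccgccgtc
Grm2, chr9:106656110-106656359, minus strand: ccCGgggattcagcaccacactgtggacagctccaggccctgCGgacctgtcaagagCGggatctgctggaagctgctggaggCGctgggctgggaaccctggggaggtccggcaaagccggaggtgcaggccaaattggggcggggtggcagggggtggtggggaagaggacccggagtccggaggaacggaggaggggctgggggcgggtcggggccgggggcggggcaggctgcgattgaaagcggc
In the Dlgap1 window of 300 bases, with 15 CpGs, 1 of 14 calls was undeaminated at 12 h. Grik2, with 26 CpGs, had 0 of 10 at 6 h and no call at 12 h. Grm2, with 22 CpGs, had 0 of 4 at 12 h. In the other 2 promoters, Grin2d had 0 of 6 calls at 6 h and 0 of 1 at 12 h, and Gria4 had 0 of 1 at 12 h. These counts are too small to give a level for any 1 promoter. Over all promoters, classes of CpGs chosen after the data were seen gave 28.9% undeaminated calls at 12 h with 0 to 4 CpGs, 22.7% with 5 to 9, 6.88% with 10 to 19, 2.80% with 20 to 29 and 2.82% with 30 or more. The levels expected from CpGs per read also fell, at 25.2, 25.0, 18.1, 10.7 and 7.29% in the same order. Of the 27 promoters of the receptor and scaffold genes, 20 fall in the 3 classes with at least 10 CpGs.

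At 12 h, reads with many CpGs were low in the 32 genes as in the libraries. At 12 h the summed level over their spans was 22.7% on reads with 1 CpG, 23.4% with 2, 26.6% with 3, 23.3% with 4 or 5, 26.8% with 6 or 7, 19.0% with 8 to 10 and 5.14% with 11 or more. The expected levels were 24.3, 25.4, 26.1, 25.9, 23.8, 17.3 and 5.60% in the same order. In the densest class 2 of 222 calls at gene ends (0.901%, 0.247 to 3.22%) were undeaminated, on 15 reads, none of them from replicate C. In gene bodies it was 15 of 132 calls on 10 reads, of which replicate C gave 13 of 40 calls on 3 reads. Without replicate C the bodies were at 2 of 92 (2.17%), so no difference between bodies and ends of the 32 genes was measurable in this class. In ends of all protein-coding genes that class reached 3.56% and in bodies, as defined above, 8.52%. At 6 h this class was not low in the 32 genes. Over their spans 12 of 138 calls on 9 reads were undeaminated (8.70%, 5.04 to 14.6%), where 2.07% was expected. In their bodies it was 11 of 84 calls on 6 reads.

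**Figure D2:**
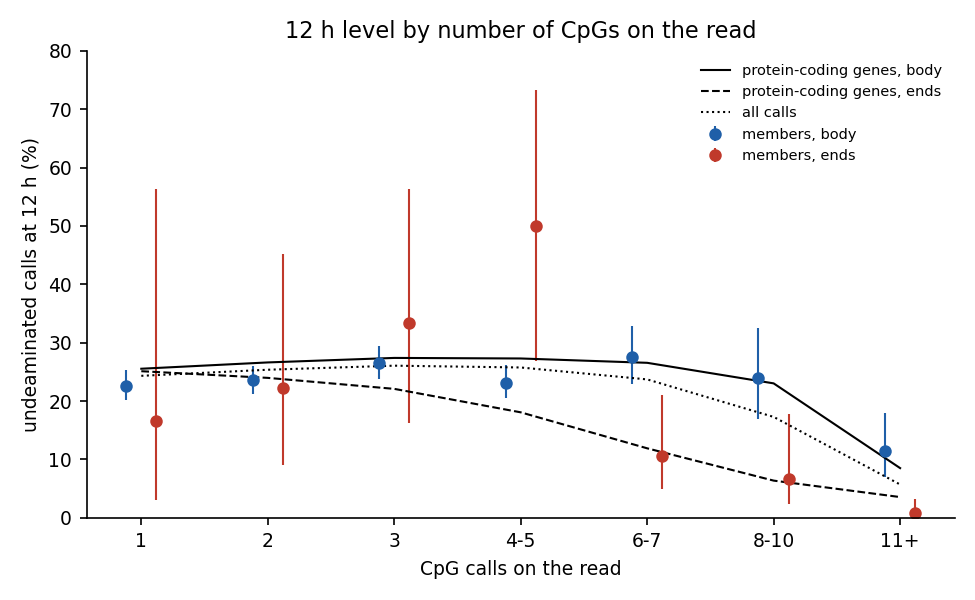
Percentage of undeaminated calls at 12 h (y axis), calls of 3 libraries summed, by the number of CpG calls on the read (x axis), for bodies (blue) and ends (red) of the 32 genes with 95% Wilson intervals and, as lines, for all protein-coding genes and all calls. Bodies of the 32 genes stay between 22.7 and 27.6% up to 10 CpGs and fall to 11.4% at 11 or more, a value set by 3 reads of replicate C, and the ends are at 0.901% there.

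Of the 32 genes, 7 reached the minimum of 10 calls in each of the 8 libraries and could be tested singly, together with 339 other genes. Between 0 and 12 h the level rose in all 7 (limma, adjusted p from 3.04e-06 to 0.00484), by 14.8 to 28.7 points. On the logit scale 3 of the 7 and 196 of all genes were called, and without 12 h replicate B 5 of the 7 and 337 of all genes. The background was nearly as high, with 98.8% of the 346 tested genes called as gains, so these calls set the 7 genes apart from no others. Their median gain was 20.5 points and that of all 346 genes 23.3. All genes share the rise of the library, so gains of different genes are not independent and their standard errors and p-values may be too small. In 7 of 7 genes every 12 h library lay above every 0 h library, as in 98.0% of all genes tested.

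The NMDA receptor genes held 2 of the 7. Grin2b (chr6:135713221-136173615) encodes the GluN2B subunit, which prevails in the young forebrain. Its level was 5.56, 0 and 11.5% in the 0 h libraries A, B and C, 0 and 5.88% in the 6 h libraries A and B, and 16.5, 22.2 and 24.5% at 12 h. The untreated libraries overlapped the 6 h libraries, and the 11.5% of untreated replicate C was 3 of 26 calls. The gain from 0 to 12 h was 14.8 ± 4.14 points (SE; limma adjusted p = 0.00484), the smallest of the 7. Without 12 h replicate B it was 13.4 points with a limma adjusted p of 0.0562. Grin2a (chr16:9567901-9996083) encodes GluN2A, the subunit that becomes prominent in the mature brain. Its level was 2.70, 0 and 0% at 0 h, 33.3 and 5.41% at 6 h, and 23.5, 20.2 and 25.9% at 12 h. The 33.3% of 6 h replicate A was 4 of 12 calls and lay above every 12 h library. The gain from 0 to 12 h was 20.5 ± 4.22 points (SE; limma adjusted p = 0.000633).

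Grid1 (chr14:34820003-35583387), the gene of the delta receptor GluD1, was at 0, 10.7 and 5.26% in the 0 h libraries, at 5.26 and 3.92% in the 6 h libraries and at 11.5, 29.4 and 29.6% at 12 h. Replicate A at 12 h, with 16 of 139 calls, was less than 1 point above untreated replicate B, with 3 of 28. The gain from 0 to 12 h was 18.7 ± 4.85 points (SE; limma adjusted p = 0.00298), and without 12 h replicate B it was 12.6 points with a limma adjusted p of 0.0990. The quasi-binomial test gave it an adjusted p of 0.0583.

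The scaffold genes held the other 4, with the 2 largest gains. Shank2 (chr7:143978077-144426043), a master scaffold of the postsynaptic density, had 0 of 44, 0 of 20 and 0 of 27 undeaminated calls at 0 h. It was at 13.3 and 2.11% at 6 h and at 25.0, 30.7 and 30.6% at 12 h. No group overlapped another, and the gain from 0 to 12 h was 28.7 ± 2.84 points (SE; limma adjusted p = 5.08e-06). The 0 of 91 untreated calls of Shank2 allow a level of up to 3.30%. Grip1 (chr10:119453238-120087267), which binds AMPA receptor subunits, was at 1.54, 0 and 0% at 0 h, at 5.26 and 3.70% at 6 h and at 26.0, 33.1 and 21.5% at 12 h. Its groups did not overlap either, and the gain was 27.8 ± 2.44 points (SE; limma adjusted p = 3.04e-06).

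Dlgap1 (chr17:69969073-70821413) and Dlgap2 (chr8:14095776-14853426) encode proteins that bind the guanylate kinase domain of MAGUK scaffolds. Dlgap1 was at 1.52, 0 and 0% at 0 h, at 5.88 and 6.00% at 6 h and at 17.3, 18.7 and 43.1% at 12 h. Its groups did not overlap, and replicate C at 12 h, with 25 of 58 calls, lay far above A and B. The gain was 21.0 ± 3.52 points (SE; limma adjusted p = 0.000158). Dlgap2 was at 1.47, 7.32 and 0% at 0 h, at 8.33 and 3.00% at 6 h and at 13.5, 20.6 and 33.7% at 12 h. All its 12 h libraries lay above the others, while 0 h and 6 h overlapped, and the gain was 17.8 ± 3.56 points (SE; limma adjusted p = 0.000512).

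**Figure D3:**
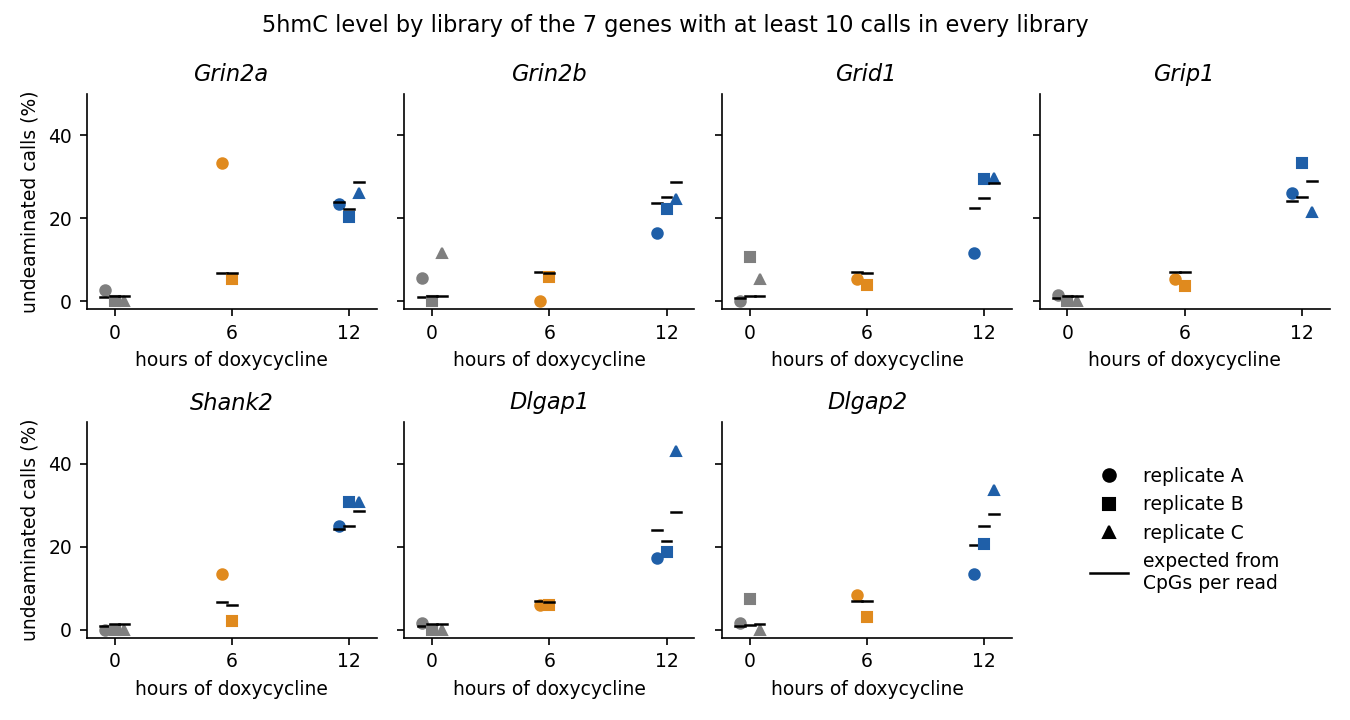
Percentage of undeaminated calls (y axis) against hours of doxycycline (x axis) for the 7 genes tested singly, 1 point per library (circle A, square B, triangle C), with black ticks at the level expected from CpGs per read. All 12 h points lie above all 0 h points, Grin2a has a 6 h point at 33.3%, and Dlgap1 has a 12 h point at 43.1%.

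After 6 h none of the 7 genes was called (limma, adjusted p from 0.171 to 0.941; 0 with an unadjusted p under 0.05). The quasi-binomial test called 0 of all 346 genes here, so it says nothing about the 7 in particular. Gains from 0 to 6 h ran from -0.704 points (Grin2b) to 10.5 points (Grin2a), with a median of 3.20 against 4.93 over all genes. Of all genes tested 6.36% were called at this time, and in 4 of the 7 (Shank2, Grip1, Grin2a and Dlgap1) both 6 h libraries lay above all 0 h libraries, as in 48.3% of all genes. From 6 to 12 h the level rose in 6 of the 7 (limma, adjusted p from 0.000320 to 0.0282), by 15.5 to 24.6 points, where 91.6% of all genes were called. The exception was Grin2a, with 10.1 ± 6.14 points (SE; limma adjusted p = 0.137), and without 6 h replicate A it rose by 16.7 points (limma adjusted p = 0.00756). In the same 6 genes all 12 h libraries lay above both 6 h libraries, as in 90.2% of all genes. The 6 calls of this comparison rested partly on single libraries. Without 12 h replicate B 3 of them were called, and 273 of all 346 genes in place of 317. Without 12 h replicate C it was 4 of them and 305 of all genes. Without 6 h replicate B, the deeper of the pair, the median gain was 16.0 points in the 7 genes and 18.8 points over all genes.

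The difference from the level expected from CpGs per read was also compared between 0 and 12 h. A level above expectation at 0 h lowers this change as much as a shortfall at 12 h. None of the 7 genes was called (limma; 1 had an unadjusted p under 0.05). The quasi-binomial test and the logit scale called 0 of all 346 genes, so they say nothing about the 7 in particular. Over all genes tested, limma called the change as a rise in 0.578% and as a fall in 0.289%. The change was 4.49 ± 2.64 points (SE) in Shank2 and 3.44 ± 2.64 points in Grip1. Dlgap1 was at -1.30 ± 3.08, Grin2a at -1.97 ± 4.20, Grid1 at -4.58 ± 4.60 and Dlgap2 at -5.12 ± 3.09 points. Grin2b was lowest at -9.24 ± 4.10 points (SE; limma adjusted p = 0.400), the gene with the unadjusted p under 0.05. With libraries summed, Grin2b was 4.51 points from expectation at 0 h and -4.69 points at 12 h. Thus the change was negative in 5 of the 7, with a median of -1.97 points. It was negative in 156 of 346 genes, with a median of 0.621. Without 12 h replicate A, the library in which the 32 genes were lowest, the median change of the 7 was 1.36 points and 3 were negative.

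**Figure D4:**
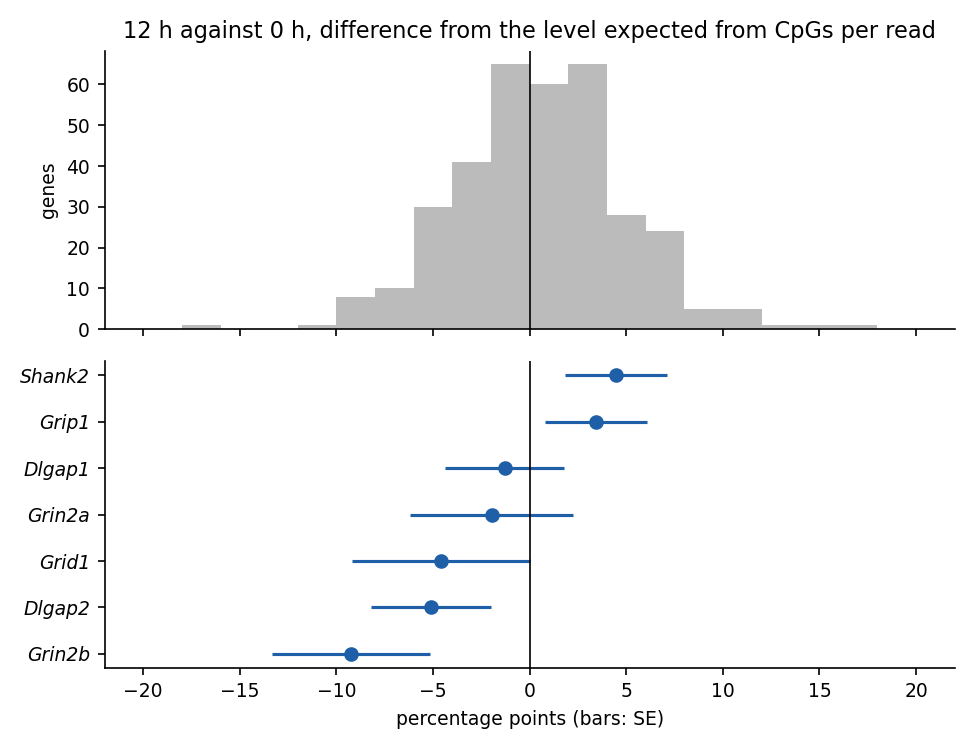
Change from 0 to 12 h in the difference between observed and expected level, in percentage points (x axis), as a histogram of the 346 tested genes (top, y axis number of genes) and for the 7 receptor and scaffold genes with SE bars (bottom). The 7 genes lie between -9.24 and 4.49 points, within the range of all tested genes, and none was called.

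By subfamily the 12 h means ran from 19.2 to 25.3%, while the SD between the libraries of a subfamily ran from 2.60 to 11.4 points. They are described by role, with mean and SD over libraries and without a test. AMPA receptor genes had 0 of 57 undeaminated calls at 0 h, which allows up to 5.26%. They were at 0 and 8.22% at 6 h, and at 13.7, 27.7 and 16.1% at 12 h (19.2% ± 7.46, SD, n = 3; 50 of 245 calls), the lowest mean of the 8 subfamilies, where 25.9% was expected. Gria1, the best covered and the gene of GluA1, had 0 of 46 undeaminated calls in untreated cells, 5 of 70 after 6 h and 35 of 174 after 12 h (20.1%, 14.8 to 26.7%). Its 12 h libraries were at 13.8, 25.3 and 16.7%. Gria4 (GluA4) had 0 of 11, 1 of 9 and 14 of 52, and Gria2 (GluA2, the subunit that makes AMPA channels impermeable to calcium when edited) had no call in untreated cells, 0 of 4 after 6 h and 1 of 19 after 12 h.

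Kainate receptor genes were at 1.13% ± 0.991 (SD, n = 3) at 0 h, 7.12% ± 0.808 (SD, n = 2) at 6 h and 21.6% ± 2.60 (SD, n = 3) at 12 h, with libraries at 19.8, 24.6 and 20.5% and 25.0% expected. Grik4, which encodes a high-affinity subunit, had the most calls. Undeaminated were 0 of 108 in untreated cells, 6 of 79 after 6 h and 73 of 351 after 12 h. Its 12 h libraries were at 15.5, 26.7 and 19.6%. Grik3 had 0 of 41, 8 of 112 and 65 of 283, Grik5 had 0 of 18, 3 of 29 and 23 of 111, Grik1 had 1 of 13, 1 of 29 and 26 of 107, and Grik2 had 1 of 29, 1 of 32 and 16 of 75. With the 12 h libraries summed, all 5 were below their expected level, with differences from -0.264 points (Grik1) to -3.51 points (Grik2). Each expected level lay inside the gene's interval, and 45.8% of all genes with at least 50 calls at 12 h were below theirs. The libraries were on both sides, with the kainate genes together at -2.75, 0.890 and -8.32 points in A, B and C.

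NMDA receptor genes were at 2.35% ± 2.15 (SD, n = 3) at 0 h, 7.54% ± 5.56 (SD, n = 2) at 6 h and 24.8% ± 9.46 (SD, n = 3) at 12 h, with 23.2% expected. Their 12 h libraries were at 17.2, 21.8 and 35.4%. Beside Grin2a and Grin2b, Grin1, the obligatory subunit, had 0 of 20, 0 of 40 and 11 of 61 undeaminated calls at 0, 6 and 12 h. Grin2c had 0 of 25, 0 of 6 and 20 of 58, Grin2d had 0 of 15, 4 of 51 and 11 of 44, and the glycine-binding subunit genes Grin3a and Grin3b had 0 of 20, 0 of 14 and 2 of 46, and no call, 0 of 5 and 19 of 46. The short genes among these rest on few reads at 12 h, 12 for Grin2c, 5 for Grin3b and 15 for Grin2d, each with many CpGs. In Grin3b the 12 h libraries gave 5 of 12, 0 of 15 and 14 of 19.

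Metabotropic receptor genes were at 1.27% ± 1.36 (SD, n = 3) at 0 h, 2.83% ± 4.00 (SD, n = 2) at 6 h and 23.7% ± 3.06 (SD, n = 3) at 12 h, with 25.0% expected. Grm4, a presynaptic inhibitory receptor, had the most calls, with 0 of 49 undeaminated in untreated cells, 1 of 74 after 6 h and 56 of 178 after 12 h. Its 12 h libraries were at 33.8, 27.4 and 33.3%, each above its expected level of 22.7, 23.8 and 28.3%. Grm7, the longest gene of the set, went the other way, with 1 of 22, 3 of 57 and 14 of 99, and 12 h libraries at 8.51, 23.7 and 7.14%, each below its expected level of 22.4, 24.5 and 28.6%. Of the others, Grm8 had 1 of 53, 2 of 36 and 46 of 191, Grm5 had 0 of 21, 3 of 19 and 7 of 48, and Grm3 had 0 of 19, 0 of 13 and 3 of 22. Grm2 had 0 of 2, 0 of 1 and 5 of 13, and Grm6 had 0 of 5, no call and 0 of 12 on 2 reads, which would allow up to 25.0% if the calls were independent.

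The delta receptor subfamily was Grid1 alone. GRIP genes were at 0.513% ± 0.888 (SD, n = 3) at 0 h, 3.88% ± 0.657 (SD, n = 2) at 6 h and 25.3% ± 4.36 (SD, n = 3) at 12 h, and beside Grip1, Grip2 had 0 of 8, 1 of 40 and 22 of 132 undeaminated calls. SHANK genes were at 3.74% ± 3.35 (SD, n = 3), 7.45% ± 4.83 (SD, n = 2) and 23.9% ± 4.23 (SD, n = 3). Among them Shank1 had 2 of 22, 0 of 11 and 14 of 67, and Shank3, the scaffold gene lost in Phelan-McDermid syndrome, had 3 of 28, 4 of 34 and 17 of 110. DLGAP genes were at 1.60% ± 1.51 (SD, n = 3), 7.50% ± 1.38 (SD, n = 2) and 24.9% ± 11.4 (SD, n = 3), with 12 h libraries at 16.3, 20.5 and 37.9%. Dlgap4 had 1 of 63, 15 of 99 and 43 of 151, and Dlgap3 had 0 of 15, 0 of 56 and 14 of 82. At 12 h the receptor genes together were at 23.0% ± 3.98 (SD, n = 3) and the scaffold genes at 24.6% ± 6.33 (SD, n = 3).

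**Figure D5:**
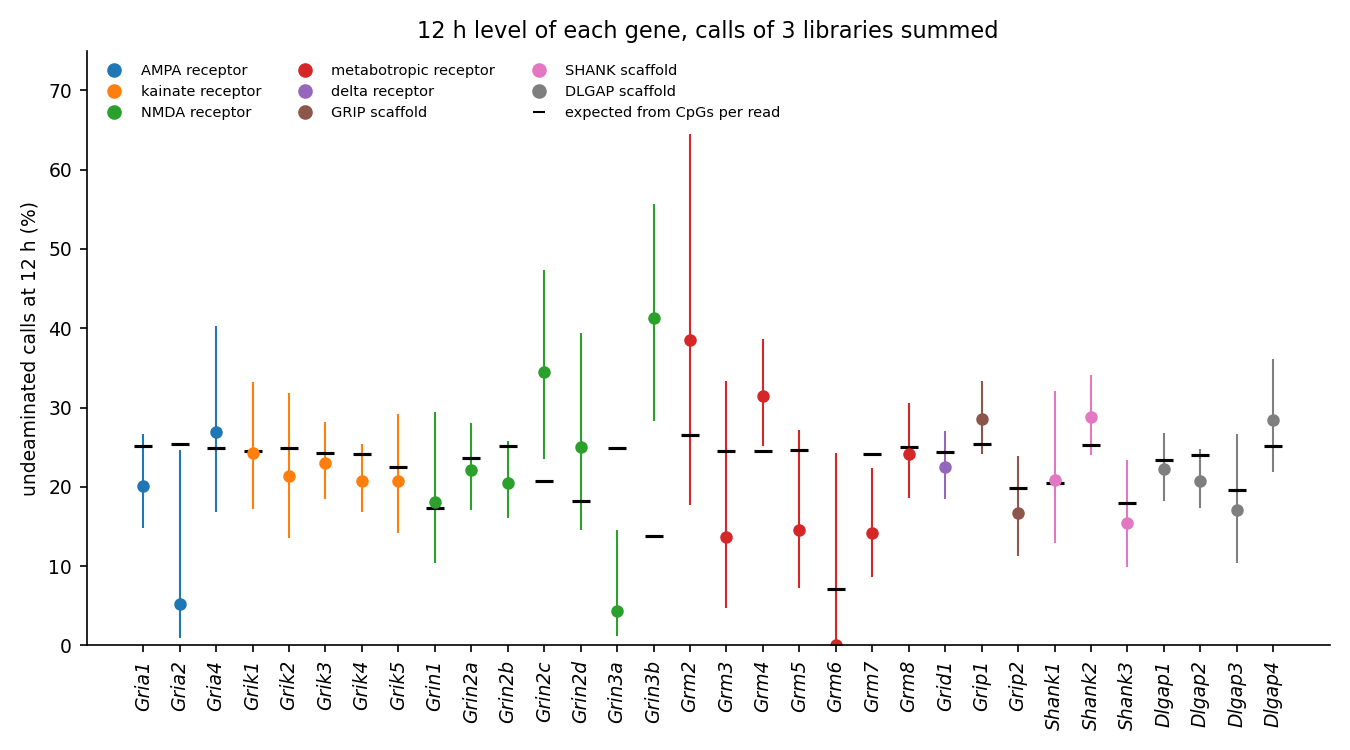
Percentage of undeaminated calls at 12 h (y axis) of each of the 32 genes (x axis), calls of 3 libraries summed, coloured by subfamily, with 95% Wilson intervals and black ticks at the level expected from CpGs per read. Among the well covered genes Grm7 lies below its tick at 14.1% and Grm4 above it at 31.5%, and the widest intervals belong to genes with few calls.

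At 12 h, 24 of the 32 genes had at least 50 calls, a limit chosen after the data were seen. Their summed levels ran from 14.1% (Grm7) to 34.5% (Grin2c), with a median of 21.7%. Of these 24, 16 were below their expected level, where 45.8% of the 3749 genes with as many calls were, and no test of that count was made. The interval lay wholly below the expected level in Grm7 (8.61 to 22.3%, expected 24.1%). It lay wholly above in Grm4 (25.1 to 38.6%, expected 24.5%) and in Grin2c (23.6 to 47.3%, expected 20.7%, 12 reads). Over all genes with at least 50 calls, 4.83% of the intervals lay wholly below and 10.9% wholly above, so 1 and 2 of 24 are near the background. None of these 3 reached the minimum for testing. With fewer calls, the interval of Gria2 and of Grin3a lay below and that of Grin3b above the expected level. Genes over 200 kb, 17 of the 32, were at 23.3% ± 3.94 (SD, n = 3) at 12 h, -1.98 ± 2.43 points from expectation, and the 15 shorter genes at 24.4% ± 8.30 (SD, n = 3), 2.72 ± 5.84 points from it. The 990 protein-coding genes over 200 kb were 0.353 ± 0.182 points above expectation. Neither length class of the receptor and scaffold genes lay off its expected level by more than the spread between libraries.

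Other genes of the glutamate synapse gave a similar 12 h level. A list of 37 such genes (transporters, auxiliary subunits, kinases and further scaffolds) was at 2.05% ± 0.681 (SD, n = 3) at 0 h, 2.72% ± 2.00 (SD, n = 2) at 6 h and 24.0% ± 3.11 (SD, n = 3) at 12 h, with 24.5% expected. At 6 h both libraries were below the expected level, at 1.30 and 4.13%, with 2 of 154 and 31 of 750 calls. Of this list 2 genes could be tested, and both rose from 0 to 12 h: Dlg2, a MAGUK scaffold, by 15.7 ± 2.39 points (SE; limma adjusted p = 8.25e-05) and Kalrn, the gene of a protein of dendritic spines, by 18.1 ± 3.55 points (SE; limma adjusted p = 0.000462). Both were called from 6 to 12 h and neither from 0 to 6 h. The change from 0 to 12 h in the difference from the expected level was called in neither. It was -8.07 ± 2.29 points in Dlg2 (SE; limma adjusted p = 0.231) and -5.68 ± 3.69 points in Kalrn (SE; limma adjusted p = 0.558).

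The receptors of the inhibitory transmitters GABA and glycine, 25 genes, served as a comparison. They were at 0.956% ± 1.03 (SD, n = 3) at 0 h, 10.3% ± 3.15 (SD, n = 2) at 6 h and 23.2% ± 4.21 (SD, n = 3) at 12 h, with 24.5% expected. At 6 h both libraries were above the expected level, at 12.5 and 8.04%, with 10 of 80 and 25 of 311 calls. The 1 gene of this list that could be tested, Gabbr2, a subunit of the GABA type B receptor, rose by 24.3 ± 2.49 points from 0 to 12 h (SE; limma adjusted p = 5.83e-06). Its difference from expectation changed by 0.0608 ± 2.64 points (SE) over that time. At 12 h the 3 lists differed by less than the SD between the libraries of any of them, and no test of the difference between lists was made.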

How the data were processed

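CpG calls of 8 ACE-seq libraries were used. DNA (10 ng) was cut to about 300 bp, glucosylated, deaminated and read with 150 bp chemistry in 3 sequencing runs, per the labels' protocols. The authors deposited the output of Bismark's methylation extractor (0.22.3, per the file headers), in which each line is 1 call letter, undeaminated or deaminated, for 1 CpG of 1 read. Bismark 0.22.3, Trim Galore and GRCm38 are named in the submitters' processing notes. How reads were aligned and whether duplicates were removed is not given in the sources used here, so copies of a read would count as separate reads.

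Groups and replicate letters came from the sample titles. The 32 genes and the comparison lists were chosen with earlier results of these data known. The genes named singly are those that could be tested and the best covered of each subfamily. The rest are given by counts. Spans and promoter letters came from RefSeq tables of GRCm38.p6, and 698 of the calls (8.80%) also lie in another annotated gene.

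The level of each gene with 10 or more calls in all 8 libraries (346 genes) was fitted with limma 3.58.1 in R 4.3.3 over all 8 libraries, 1 factor of 3 groups, with weights of calls over the binomial variance of the library level. P-values were Benjamini-Hochberg adjusted over all genes, with a threshold of 0.05. A second fit used the level minus that expected from the library and the class of CpGs per read (1, 2, 3, 4 to 5, 6 to 7, 8 to 10, 11 or more). Its contrast of 12 h against 0 h is the change in that difference. Genes called in it are said to lie off the expected level. The scripts were tested on simulated data. Counts of 0 are given with the share 3 calls would make. Alternatives were other minimums, weights, scales and tests, 1 call per read, parts of the gene, single runs, a replicate block and leaving out libraries and genes. Replicate letters were checked for pairing of libraries. No pairing was seen, but the check cannot exclude it, and libraries were not treated as pairs.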

Additional observations from a re-analysis of the deposited data

How the results depend on the processing

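Of the alternatives, those named here changed a count by more than 1.5 times or moved a level beyond the SD of its libraries. No gain that was called changed sign, whereas the uncalled 12 h differences from expectation changed sign under at least 1 alternative in 9 of 11 levels (32 genes, parts of the gene and subfamilies), in 26 of 134 alternatives. The pooled difference of -0.684 points was 0.864 without 12 h replicate A and 0.269 within run 3. The cause of a change was not tested unless fewer genes or calls enter by construction. With a minimum of 5 calls, 967 of 1028 genes gained from 0 to 12 h (13 of the 14 receptor and scaffold genes then tested), 1 from 0 to 6 h and 743 from 6 to 12 h (11 of 14), and 6 lay off the expected level. With a minimum of 20 calls these gains were 86 of 87 genes (2 of 2) and 84 (2 of 2). With 1 call per read 80 of 80 genes gained from 0 to 12 h (4 of 4), 1 from 0 to 6 h and 77 from 6 to 12 h, and 0 lay off the expected level. On the logit scale 196 genes (3 of 7) gained from 0 to 12 h and 0 from 0 to 6 h, and 0 lay off the expected level, against 1 at an unadjusted p under 0.05. The quasi-binomial test called 0 gains from 0 to 6 h, 3 of the 7 and 241 of all 346 genes from 6 to 12 h, and 0 genes off the expected level. Without weights 0 genes gained from 0 to 6 h, where limma with weights called 22 and 104 had an unadjusted p under 0.05. Against the library level alone, 7 genes in place of 3 lay off it, 0 of them among the 7.

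Without 1 library at a time, gains from 0 to 6 h ran from 0 to 22 genes, gains from 6 to 12 h from 168 to 317 genes and from 2 to 6 of the 7, and genes off the expected level from 0 to 3. A library left alone in its group is assumed to vary like the others. No pairing by replicate letter was seen: the correlations of same-letter deviations from group means were -0.165 to 0.00940 in 7 pairs and those of other pairs -0.0492 to 0.142. This check cannot exclude pairing. The deviations of the 2 libraries of 6 h mirror each other by construction, and levels of genes with as few as 10 calls vary widely by counting error. With a replicate block 344 genes gained from 0 to 12 h, 16 from 0 to 6 h and 311 from 6 to 12 h, with 7, 0 and 6 of the 7 genes.

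The pooled 0 h level was 0% within run 1 and 2.46% within run 3. In gene bodies it was 1.61% with 1 call per read and 0, 1.66 and 2.63% within runs 1, 2 and 3. At gene ends it was 50.0% within run 1, from very few calls. Ends at 6 h were at 1.00% ± 1.41 (SD, n = 2; 2 of 102 calls) in the main setting, where 4.77% was expected. They were at 3.57% with 1 call per read and at 3.92 and 5.03% with ends of 0.5 and 2 kb. The 12 h difference of the ends from expectation was 6.52 points with ends of 2 kb, in place of -1.77 points. A library without calls in a run is left out of these means.

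Subfamily levels within single runs rest on few calls. Within run 1, AMPA genes were at 33.3% (6 h) and 11.1% (12 h), kainate genes at 0% (0 h), 0% (6 h) and 24.8% (12 h), and NMDA genes at 0% (0 h) and 34.3% (12 h), 8.80 points above expectation. Metabotropic genes were at 25.0% (6 h) and 28.1% (12 h), 2.02 points above expectation, the delta gene at 0% (6 h), GRIP genes at 0% (6 h), SHANK genes at 0% (0 h) and 12.5% (6 h), and DLGAP genes at 0% (0 h) and 12.5% (6 h), with a 12 h difference of -11.4 points. Within run 2, kainate genes were at 0% (0 h) and 5.62% (6 h), the delta gene at 6.15% and GRIP genes at 3.19% (6 h), SHANK genes at 0% (0 h), 14.4% (6 h) and 30.8% (12 h), 6.28 points above expectation, and DLGAP genes at 9.34% (6 h), and the 12 h difference of metabotropic genes was -4.72 points. Within run 3, kainate genes were at 2.50% (0 h) and 9.06% (6 h), the delta gene at 1.52%, GRIP genes at 5.39%, SHANK genes at 2.50% and DLGAP genes at 4.26% (all 6 h). With 1 call per read, kainate genes were at 9.68% (6 h) and 25.3% (12 h), metabotropic genes at 28.1% (12 h), 2.69 points above expectation, the delta gene at 2.73% and GRIP genes at 2.00% (6 h), and SHANK genes at 28.6% (12 h). Depth limits all single genes: the median gene of the 32 had 108.5 calls at 12 h.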
